A study of Homo sapiens with 22 samples.

Results

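Small nuclear, small nucleolar, Y, 7SK and signal recognition particle RNA genes were examined as neighbours of regions enriched for H3R2me2a, asymmetric dimethylation of arginine 2 on histone H3. A region was a member when the authors named such a gene as nearest: names starting with RNU, RNVU, SNOR, snoU, SCARNA, Y_RNA, RNY, 7SK, RN7SK or RN7SL, or consisting of U and a number. This rule took 355 of 8819 regions, of which 346 lay on chromosomes (of 8797) and 9 on unplaced contigs (of 22). The rule used names only and no value of cluster, class, distance or tags. A name was given by nearness, so distance and position are not independent of the rule, and cluster and class shares differ with distance. It counts regions, and the 355 regions carried 206 different names.

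The lists came from chromatin immunoprecipitation and sequencing of NT2/D1 cells, a pluripotent human embryonal carcinoma line that differentiates in all-trans retinoic acid (ATRA). The series held 22 samples with 5 antibodies (H3R2me2a, H3K27ac, H3K4me1, H3K4me3 and IgG), in CRISPR control cells and cells lacking the arginine methyltransferase PRMT6. Both libraries used here were H3R2me2a libraries of CRISPR/Cas9 control cells, with the antibody described as a rat monoclonal made in the laboratory; neither library came from PRMT6 knockout cells. The first library was from cells given 1 µM ATRA for 3 days and the second from cells that received none. The remaining 20 samples were not analysed here. With 1 library per condition no difference below has a replicate check, no p-value is given, and 95% intervals cover counting error only. Cluster III, the promoter list and the enhancer list were deposited under the ATRA library, and clusters I and II under the library without ATRA. All coordinates are on hg19.

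Spliceosomal small nuclear RNAs pair with pre-mRNA and with each other to remove introns: U1 recognises the start of an intron, U2 the branch point, and U4, U5 and U6 complete the machine, while U11, U12, U4atac and U6atac serve a rare class of introns. Most of these genes are short, intronless units read by RNA polymerase II from a dedicated promoter, as are the genes of U3, U8 and U13, nucleolar RNAs that guide the cutting or modification of ribosomal RNA. U6, U6atac, 7SK, 7SL and Y RNAs are read by RNA polymerase III, and most other small nucleolar RNAs are cut out of the introns of host genes. PRMT6, the enzyme that places H3R2me2a, is known for opposing H3K4 trimethylation at promoters. The grouping by polymerase used below is textbook knowledge, and it was adopted after the values had been seen.

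Transcripts of some polymerase II genes with a region within 1000 bp of the start are printed from GENCODE 44 to describe the named genes. Capitals mark the first match to an Sm-type sequence, the short uridine-rich stretch that binds the Sm protein ring, written here as ATTTNTG or ATTTNNTG and searched on the sense strand only.
RNU1-1: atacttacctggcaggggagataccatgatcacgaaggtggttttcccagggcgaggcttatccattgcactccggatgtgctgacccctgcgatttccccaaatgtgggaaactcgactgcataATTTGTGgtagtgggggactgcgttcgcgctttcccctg
RNU2-2P: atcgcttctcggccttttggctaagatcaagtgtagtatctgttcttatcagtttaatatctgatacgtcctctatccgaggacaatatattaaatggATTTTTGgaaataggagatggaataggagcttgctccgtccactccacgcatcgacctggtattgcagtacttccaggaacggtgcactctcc
RNU4-2: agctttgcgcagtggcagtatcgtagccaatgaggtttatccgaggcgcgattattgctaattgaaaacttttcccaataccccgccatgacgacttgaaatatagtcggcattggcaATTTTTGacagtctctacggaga
RNU11: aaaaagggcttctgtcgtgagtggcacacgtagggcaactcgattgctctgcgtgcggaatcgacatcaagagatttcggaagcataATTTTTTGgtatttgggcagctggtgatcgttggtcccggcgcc
RNU4ATAC: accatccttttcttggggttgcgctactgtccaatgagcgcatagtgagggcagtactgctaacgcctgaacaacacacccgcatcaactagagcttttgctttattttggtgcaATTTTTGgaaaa
These RNAs are short: 164 bases for RNU1-1, 191 for RNU2-2P, 141 for RNU4-2, 131 for RNU11 and 127 for RNU4ATAC. Among the polymerase II genes named within 1000 bp of a region, 30 of 40 with a GENCODE 44 transcript held the sequence (75%), against 0 of 10 polymerase III genes, 1 of 11 intronic or other genes and 863 of 5806 (14.9%) GENCODE 44 transcripts of 100 to 200 bases. By family it was found in 14 of 17 U1, 3 of 6 U2, 2 of 2 U4, 1 of 3 U3 and 0 of 1 U8 transcripts. A match is a description of the letters and not a measured binding site. Whether a transcript holds the sequence goes with its RNA family, so these counts describe the named genes and not the H3R2me2a regions.

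The names were checked against reference gene types. Of the 355 regions, 285 had a named transcript that was found in GENCODE 44. Its type was snRNA at 155 regions, misc_RNA (which covers Y, 7SK and 7SL RNAs) at 89, snoRNA at 36, lncRNA at 4 and scaRNA at 1. By symbol, RefSeq typed the name as pseudogene at 171 of the 355 regions, snoRNA at 33, snRNA at 29 and other non-coding RNA at 2. At 120 regions the symbol was not found there. Many members are therefore beside relic copies of small RNA genes, and being named as nearest does not place a region at the gene.

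The members on chromosomes fell into unlike groups by distance. A distance of at most 1000 bp from the named start was recorded for 80 of 346 (23.1%, 95% interval 18.8 to 27.9), against 50.6% of all regions. The promoter list held 60 of the 346 (17.3%, 13.5 to 21.8), against 48% of all regions. Taken over any distance, cluster II held 73 (21.1%, 16.9 to 25.8; all regions 23.8%), cluster III 260 (75.1%, 70.2 to 79.6; all regions 73.9%) and cluster I 13 (3.76%, 2.02 to 6.34; all regions 2.3%), which are close to the background shares. For cluster II this rested on chromosome 1 and U1: without chromosome 1 the share was 15.8% in members and 24.5% in all regions, and without U1 names it was 16.4% in members. Intergenic positions accounted for 133 members (38.4%, against 17.4% of all regions). Chromosome 1 carried 87 (25.1%, background 18.6%) and chromosome 12 carried 52 (15%, background 11.7%).

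Close to starts, the members differed from other regions in cluster, class and tags. Of the 80 within 1000 bp, 51 were in cluster II (63.8%, 52.2 to 74.2), against 35.2% of all 4453 regions at that distance, and 28 were in cluster III (35%), against 63.9%. The enhancer list held 43 of the 80 (53.8%, 42.2 to 65.0), against 12.5%. The median tagcount, the authors' number of tags per region, was 110 (95% interval 75 to 168) in members and 39 (38 to 40) in all regions within 1000 bp. Per kilobase of region the medians were 162 tags in members and 69.7 tags in all regions, and the median widths were 734 bp in members and 528 bp in all regions. The lowest tagcount in cluster II was 35, so part of this gap goes with the cluster. Within cluster II the 51 members still had a median tagcount of 220 (140 to 256), against 75 (72 to 78) for all 1569 regions of that cluster within 1000 bp, or 240 tags per kilobase in members and 139 in all regions.

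The 80 regions differed by polymerase type, but few polymerase III-type regions were at genes without a pseudogene label. Of such RefSeq genes, 1 of 5 U6 genes and the 1 U6atac gene were named within 1000 bp. None of the 4 Y RNA genes and not the 1 7SK gene were named. The polymerase III type was therefore seen mostly at copies, whereas 37 of the 53 polymerase II-type regions had names without a P ending. The part played by being a gene or a copy was not tested. For polymerase II-type genes 48 of 53 regions were in cluster II (90.6%, 79.3 to 96.9), 4 in cluster III and 1 in cluster I. For polymerase III-type genes 1 of 14 was in cluster II and 13 were in cluster III (92.9%, 66.1 to 99.8). For intronic and other genes 2 of 13 were in cluster II and 11 in cluster III. The median tagcount was 210 (131 to 256; range 28 to 694) for the polymerase II type, 38.5 (22 to 65; range 8 to 109) for the polymerase III type and 32 for the rest. In subsets chosen after seeing the data the polymerase II-type share was similar: cluster II held 25 of 28 regions without U1 names (89.3%, 71.8 to 97.7), 33 of 37 without names ending in P and 22 of 24 outside chromosome 1, with median tagcounts of 222.5, 225 and 194 in that order. The intervals of the polymerase II and polymerase III types overlap neither for the cluster II share nor for the median tagcount. They count related copies as separate regions, and the grouping was adopted after the values were seen, so this is not a test.

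**Figure D1:**
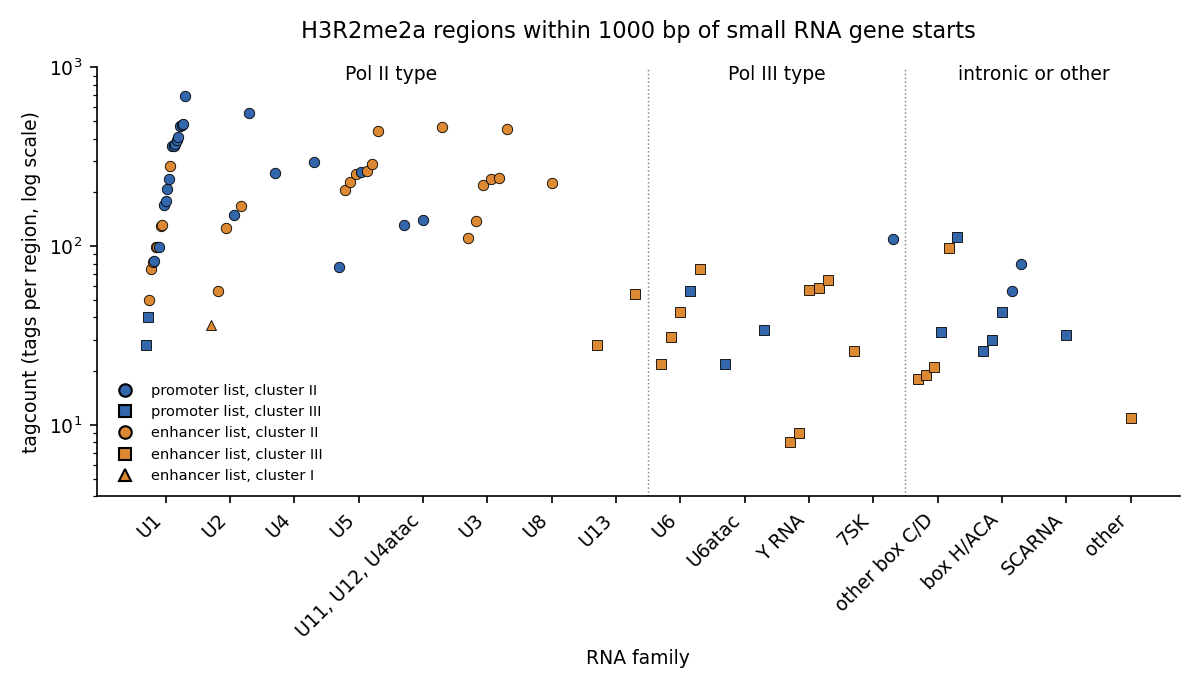
Each point is 1 H3R2me2a region within 1000 bp of a small RNA gene start, with its tagcount on a log axis, grouped by RNA family; colour gives the promoter or enhancer list and shape the cluster. The columns of U1, U2, U4, U5, U3 and U8, and the shared column of U11, U12 and U4atac, have highest tagcounts of 225 to 694 and hold mostly circles (cluster II), while U6, U6atac and Y regions are all squares (cluster III) at or below 75 tags.

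**Figure D2:**
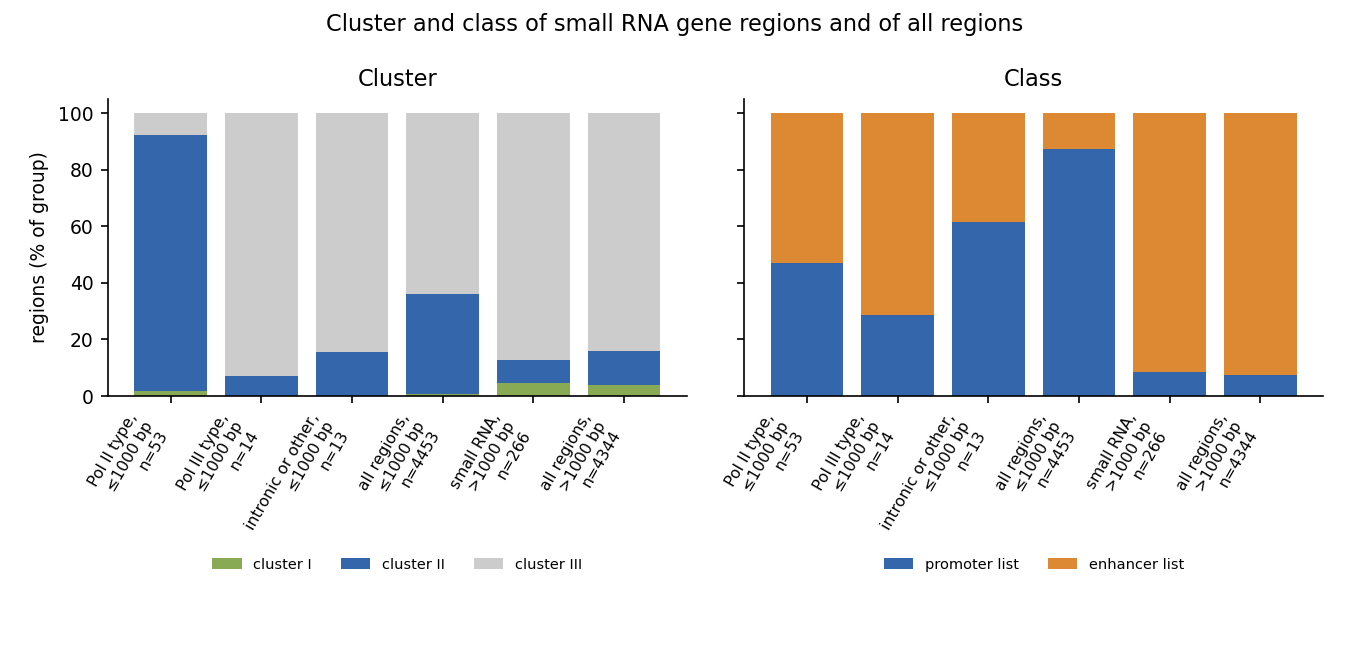
Stacked bars give the share of regions in each cluster (left) and in the promoter or enhancer list (right), for small RNA regions within 1000 bp of a start by polymerase type, all regions within 1000 bp, small RNA regions beyond 1000 bp and all regions beyond 1000 bp. The polymerase II type stands out with 90.6% in cluster II, against 35.2% of all regions within 1000 bp, whereas the bars beyond 1000 bp are alike.

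U1 genes had the most regions near starts. All 4 numbered U1 genes that RefSeq lists without a pseudogene label were named: RNU1-1 (373 tags), RNU1-2 (478), RNU1-3 (363) and RNU1-4 (481). They lay between 16839763 and 17223453 on the short arm of chromosome 1, all 4 in cluster II and in the promoter list. A further 17 U1 regions with 16 names lay between 144310867 and 149606276 on the long arm, the home of the variant U1 genes, with tagcounts of 28 to 694 and a median of 129, and 12 of the 17 were in the promoter list. The tagcounts in the short-arm group therefore sat in the upper part of the range of the long-arm group.

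RNVU1-18, a variant U1 gene, had 694 tags, the highest tagcount among members on chromosomes (chromosome 1, 149222847 to 149225120, 2274 bp wide). RNU1-59P (468), RNU1-27P (406), RNVU1-14 (395) and RNVU1-7 (363) reached the range of the numbered genes. At the low end RNVU1-16 had a pair of adjacent regions with 28 and 83 tags, RNVU1-12 had 40 and RNVU1-19 had 50. In all, 23 of 25 U1 regions near starts were in cluster II, 17 were in the promoter list, and the recorded point lay downstream of the start in all 25. Names ending in P were no bar to a strong region: RNU1-27P and RNU1-28P on chromosome 14 had 406 and 280 tags.

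Several U1 copies cannot be told apart by their letters. Of 17 U1 genes near a region with a transcript sequence, 7 were identical to the RNU1-1 transcript, RNU1-1 included: RNU1-1, RNU1-2, RNU1-3, RNU1-4, RNVU1-18, RNU1-27P and RNU1-28P. The others differed from it at up to 46 bases. The sources used here do not say how reads that match several places were handled, so the division of tags among identical copies is uncertain. By symbol, 7 of the 17 variant U1 genes in RefSeq were named within 1000 bp. Names of the variant U1 genes changed between annotations (the transcript the authors call RNVU1-12 is RNVU1-3 in GENCODE 44), so this count is uncertain.

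U2, U4 and U5 regions near starts were also mostly in cluster II, with 2 of 6, 2 of 2 and 2 of 8 in the promoter list, against 17 of 25 for U1. RNU2-2P, the gene now called RNU2-2, had 556 tags, second among members on chromosomes (chromosome 11, 62608462 to 62609510, promoter list, cluster II). The other U2 names end in P, with 168 tags at RNU2-59P, 150 at RNU2-63P, 126 at RNU2-64P, 56 at RNU2-6P and 36 at RNU2-38P, the last in cluster I. RefSeq types RNU2-63P as snRNA and the others of these as pseudogene. RNU2-1, the tandemly repeated U2 gene, was not named as nearest to any region.

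Both U4 genes were named, RNU4-2 with 295 tags (chromosome 12, 120728996 to 120730049) and RNU4-1 with 256. They were 261 bp apart, both in cluster II and in the promoter list, and they shared 1 second interval of 2486 bp, so they are not separate observations in that interval.

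U5 was the family in which all regions were close to starts: 8 of 8 were within 1000 bp and in cluster II, and 6 of the 8 were in the enhancer list. RNU5A-1 had 441 tags (chromosome 15, 65588059 to 65589083), RNU5F-1 289, RNU5A-8P 264, RNU5E-6P 259, RNU5B-1 255, RNU5E-1 229, RNU5D-1 205 and RNU5E-4P 76. RNU5A-1 was well above the next value and RNU5E-4P well below the others. All 5 U5 genes that RefSeq lists were among them.

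The genes of the rare-intron spliceosome divided by polymerase. RNU11 had 466 tags (chromosome 1, 28974651 to 28976013, enhancer list), RNU4ATAC 140 and RNU12 131 (both promoter list), and all 3 were in cluster II. RNU6ATAC, a polymerase III gene that acts in the same machine, had a pair of promoter-list regions in cluster III with 34 and 22 tags. The tags at RNU6ATAC were below those at each of the 3 polymerase II genes.

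The nucleolar RNA genes with their own promoters followed. U3, needed for early cuts in the ribosomal RNA precursor, had 6 regions near starts, all in cluster II and all in the enhancer list, on chromosome 17. SNORD3A had 450 tags (19091062 to 19092255), SNORD3B-1 241, SNORD3B-2 238, SNORD3C 220, a copy named U3 138 and SNORD3D 111. By symbol these include 5 of the 12 U3 genes in RefSeq, and SNORD3E to SNORD3K were not named under those symbols. SNORD118, the U8 gene, which acts in the making of the large ribosomal subunit, had 225 tags in the enhancer list and cluster II (chromosome 17, 8076184 to 8077234). The U13 regions were different: only copies named snoU13 appeared, with 54 and 28 tags, both in cluster III, and SNORD13 itself was not named.

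Strong regions of this set were often close neighbours. Adjacent polymerase II-type regions less than 20000 bp apart included RNU4-2 and RNU4-1, RNU5A-1 and RNU5B-1 (gap 7651 bp), RNU5F-1 and RNU5D-1 (8355 bp), RNU1-27P and RNU1-28P (7868 bp), SNORD3A and SNORD3C (608 bp) and SNORD3B-1 and SNORD3B-2 (897 bp). Such neighbours are related copies, so the 53 regions are not 53 independent sites.

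The recorded point of a region lay mostly downstream of the start of these short genes. The authors' signed distance was above 0, that is downstream of the start, for 65 of the 80 members within 1000 bp (81.2%, 71.0 to 89.1), against 39.4% of all regions at that distance. Of the 53 polymerase II-type regions 50 were downstream (94.3%, 84.3 to 98.8), with a median of 146 bp (112 to 178), while 4 of 14 polymerase III-type regions were. The median over all regions within 1000 bp was -17 bp (-20 to -14). RNU1-1 was recorded at 190 bp, RNU11 at 181, RNU4-2 at 184 and RNU4ATAC at 112, beside RNAs of 127 to 164 bases. Of the 40 polymerase II-type regions with a GENCODE 44 transcript, 23 had their point inside the transcript length, 16 past it and 1 before the start. Those inside include SNORD3A and SNORD3B-1, with transcript lengths of 699 and 758 bases. The sources used here do not say from which point of a region the distance was taken. Across the 819 transcripts with several regions, starts implied by region midpoints differed by a median of 100 bp. Single distances are not resolved more finely than that, and neither is the split into inside and past.

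**Figure D3:**
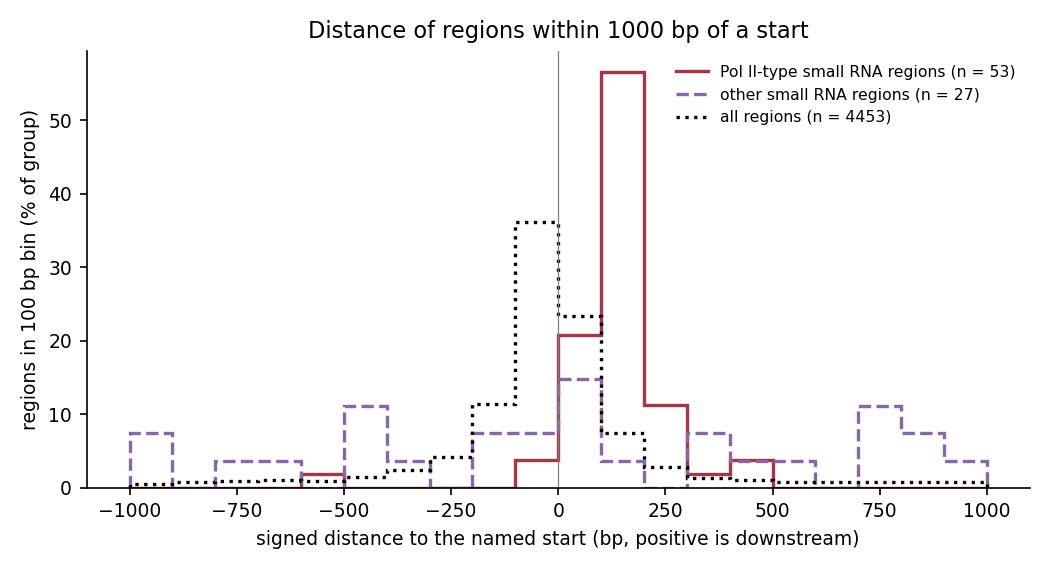
Lines give the percentage of regions per 100 bp bin of signed distance to the named start (positive is downstream) for polymerase II-type small RNA regions (n = 53), other small RNA regions (n = 27) and all regions within 1000 bp (n = 4453). The polymerase II type peaks at 100 to 200 bp with 56.6% of its regions, while all regions peak just before the start.

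Strong start-proximal regions of these genes were often classed as enhancers. Among the regions that the authors placed in a start window of 1250 bp, 49 of 87 members were in the enhancer list (56.3%), against 712 of all 4698 such regions (15.2%). Ranked by tagcount, members were 5 of the top 10, 9 of the top 20 and 17 of the top 50 regions of the enhancer list on chromosomes, of which they made up 6.26%. In the enhancer list's start windows they were 12 of the top 20, where they made up 6.88% of regions. They were 7 of the top 50 in the promoter list, where they made up 1.42%. RNU11, SNORD3A and RNU5A-1 were enhancer-list regions with 466, 450 and 441 tags, and RNU1-2, RNU1-4 and RNU2-2P were promoter-list regions with 478, 481 and 556. The sources used here do not give the criteria for the classes, and their part in this split was not tested.

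Polymerase III genes had few regions at starts, and their median tagcount of 38.5 was close to the 39 of all regions within 1000 bp, although below that of the polymerase II type. RNU6-1 was the only U6 gene without a pseudogene name within 1000 bp, of 5 that RefSeq lists, with 90 MACS tags and a tagcount of 56 in the promoter list (chromosome 15, 68132272 to 68133021, recorded at -155 bp). The other U6 regions near starts were 1 beside RNU6-619P (73 MACS tags, tagcount 22), 1 beside RNU6-676P (38 and 31) and a pair beside RNU6-174P (111 and 75, 43 and 43). The 5 Y RNA regions near starts had tagcounts of 8 to 65 and MACS tags of 37 to 117, all in cluster III and all in the enhancer list, and none was beside a numbered Y RNA gene (RNY1, RNY3, RNY4 or RNY5). RN7SKP114, a copy of 7SK, the RNA that holds an elongation factor inactive, was the only polymerase III-type region near a start in cluster II, with 109 tags.

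RN7SK itself and RN7SL1, RN7SL2 and RN7SL3, which encode the RNA of the signal recognition particle, were not named as nearest to any region, and neither was RNU7-1, the U7 gene for histone mRNA ends. A gene that was not named may still have a region that was assigned to another name. None of the 32 RN7SL and none of the 18 U7 regions was within 1000 bp of the start of its named copy.

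Small nucleolar RNA genes that mostly lie in introns were spread over both classes. All 5 box H/ACA regions near starts (guides of pseudouridine formation) were in the promoter list, with SNORA73B at 79 tags and SNORA57 at 56 tags in cluster II, and SNORA57 again at 43, SNORA76 at 30 and SNORA63 at 26 in cluster III. The 6 other box C/D regions near starts (guides of ribose methylation) were all in cluster III, with 18 to 113 tags. SNORD12 was highest with 141 MACS tags and a tagcount of 113, and SNORD99 followed with 136 and 98. SCARNA2, a guide that works in Cajal bodies, had 66 MACS tags and a tagcount of 32. These genes lie inside or beside host genes, and the start that a region belongs to cannot be told apart here.

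Beyond 1000 bp the members had cluster III shares and tags close to those of all regions, but lay more often between genes. Of 266 such regions 232 were in cluster III (87.2%, 82.6 to 91.0), against 84.2% of all 4344 regions beyond 1000 bp, and 23 were in the promoter list (8.65%), against 7.55%. The median tagcount was 23 (21 to 27) in members and 24 (23 to 25) in all regions, and median MACS tags in cluster III were 49 in both. Chromosome 12 held 16.5% of these members and 13% of all regions beyond 1000 bp, and chromosome 1 held 19.5% of the members and 19.4% of all regions. The median distance to the named start, whichever its direction, was 16106 bp in members and 11715 bp in all regions. Intergenic positions held 50% of the members (43.8 to 56.2) and 35.3% of all regions beyond 1000 bp, and introns held 33.8% of the members (28.2 to 39.9) and 46.6% of all regions. Cluster II held 22 of these members (8.27%, 5.26 to 12.3), against 12% of all regions. They reached 179 tags, at a Y_RNA name on chromosome 20, and RNU6-870P had 163.

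Cluster III regions carried both MACS tags, deposited under the ATRA library, and a tagcount whose library is not given. In the 202 regions of cluster I, deposited under the library without ATRA, tagcount exceeded MACS tags by only 0 to 8 (median 3). Which library tagcount came from was not tested. The ratio of MACS tags to tagcount, with 1 added to each, had a median of 2.17 (1.98 to 2.53) in 260 members and 2.03 (2.0 to 2.05) in all cluster III regions. MACS tags were at least 4 times tagcount in 60 of 260 members (23.1%, 18.1 to 28.7), against 15.8%. This gap followed distance: beyond 1000 bp the share was 58 of 232 (25%) in members and 25.4% in all regions, and within 1000 bp it was 2 of 28 (7.14%, 0.877 to 23.5) in members and 3.51% in all regions. Sequencing depth is unknown, so a ratio has no meaning as a fold between conditions and is read only against other regions of the same columns.

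**Figure D4:**
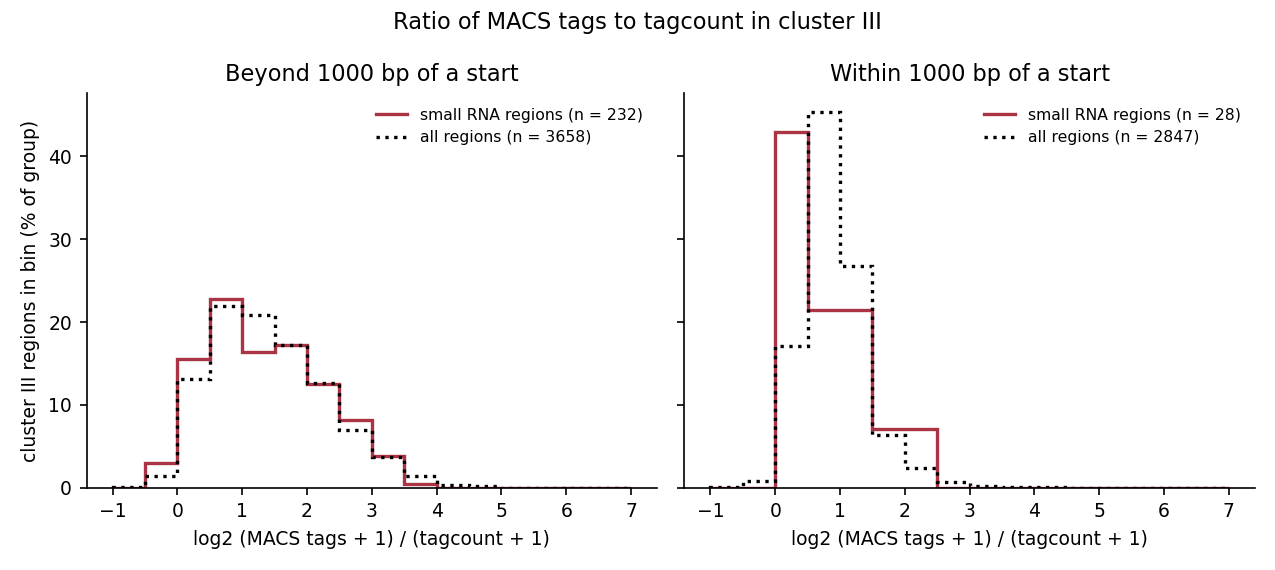
Lines give the percentage of cluster III regions per bin of the log2 ratio of MACS tags to tagcount (1 added to each) for small RNA regions and all regions, beyond 1000 bp (left) and within 1000 bp (right) of a start. Beyond 1000 bp the 232 small RNA regions follow the line of all 3658 regions, with 25% and 25.4% at a ratio of at least 4.

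By MACS tags the strongest cluster III member was an intergenic region 18392 bp from RNU4-67P on chromosome 12 (342 MACS tags, tagcount 219). RN7SL69P (242 and 180), RN7SKP29 (234 and 168), RNU6-400P (210 and 135), RNU6-371P (205 and 50), RNU6-929P (146 and 19) and a Y_RNA name (144 and 106) came next. Each of these lay far from the named copy, the nearest at -3906 bp for the Y_RNA name. RNU6-371P and RNU6-929P stood apart by MACS tags several times their tagcount, with ratios of 4.04 and 7.35.

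The highest ratios were at low tagcounts. RN7SKP183, on the X chromosome, had 37 MACS tags and a tagcount of 2 at 1 region, for a ratio of 12.67, and 101 and 10 at another, for 9.27. RNU7-174P (41 and 3), RNU7-165P (38 and 3), a Y_RNA name on chromosome 5 (45 and 4), RNU4-50P (35 and 3), SNORD56 (130 and 14), RNU6-889P (68 and 7), RN7SKP211 (58 and 6) and RNU6-321P (41 and 4) had ratios of 8.40 to 10.50. With so few tags the counting error of each ratio is wide. At the other end, MACS tags were below tagcount at 7 of 232 members beyond 1000 bp, and 6 of the 7 were on chromosome 12. These 6 lay close together, between 31514933 and 31672106, so they are not separate observations of the chromosome. The 7 regions are 3.02% of these members, against 55 of all 3658 such regions (1.5%), of which 24 were on chromosome 12. The lowest was a Y_RNA name on chromosome 16 (34 and 44, ratio 0.78), followed by RNU6-618P (46 and 56, ratio 0.82) on chromosome 12, RNU6-618P again (36 and 40), a Y_RNA name (77 and 85) and RNU6-318P (99 and 102).

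Cluster I held 13 members, all in the enhancer list, with 32 to 62 MACS tags. The highest was recorded at -6540 bp from a Y_RNA start on chromosome 2 (62 MACS tags, tagcount 65), and snoU13 on chromosome 9 had 50 and 51. The others were beside RNU6-416P (45 and 47), RNU105B (45 and 45), RNU6-392P (41 and 44), RNU6-400P (37 and 41, 34 and 40), RNU6-250P (36 and 37), RNU7-62P (36 and 37), snoU13 on chromosome 1 (36 and 41), RN7SL732P (35 and 37), SNORD112 (35 and 40) and RNU2-38P (32 and 36). RNU2-38P, recorded 6 bp from its start, was the only one within 1000 bp. Tagcount exceeded MACS tags by 0 to 6 here (median 3), against 0 to 8 over the 202 regions of cluster I.

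Some names covered many places. Y_RNA was the nearest name at 49 regions with 39 transcripts, snoU13 at 22 with 17, SNORD112 at 7 with 6 and U3 at 6 with 6, because these names are shared by copies across the genome. Other names covered several regions around 1 transcript: RNU4-50P had 6 regions, RNU1-141P and RNU6-400P 5 each, and RNU6-618P and RNU4-67P 4 each. In all, 42 names had several regions (182 regions) and 164 names had 1. Of the regions with a name ending in P, 21 of 171 (12.3%, 7.77 to 18.2) were within 1000 bp of a start, against 59 of 175 with other names (33.7%, 26.8 to 41.2). The other names also hold many copies, among them the 49 Y_RNA, 22 snoU13 and 16 7SK-type regions, so this does not set copies against genes.

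The 9 members on unplaced contigs included the largest counts. Y_RNA names on GL000205.1 (83926 to 88151, 5016 bp from the start) and GL000195.1 had 3527 and 2962 tags in regions 4226 and 3097 bp wide, both in cluster II and in the promoter list. A further Y_RNA name on GL000223.1 had 251. A copy named U1 on GL000192.1 had 592 tags 168 bp downstream of its start, in cluster II and the promoter list, and the other contig members had 20 to 97 tags. Unplaced contigs hold repeated sequence, so these counts are kept apart from the chromosomes.

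The proteins that work with these RNAs were looked up from a list of 91 genes (snRNA gene activators, Integrator, SMN complex, Sm and LSm proteins, small nucleolar and 7SK RNA binding proteins). The authors named 47 of the 91 (51.6%, 40.9 to 62.3) as nearest to a region, against 22.4% of 20056 protein-coding genes in RefSeq. Many of the list are genes that most cells express, and whether that bears on this share was not tested. Their 51 regions were in cluster I (2), cluster II (16) and cluster III (33), and 45 were in the promoter list. Cluster II thus held 31.4% and the promoter list 88.2% of them, against 35.2% and 87.5% of all regions within 1000 bp, where 45 of the 51 lay. Their median tagcount was 40, and 35 of the 51 had 50 or fewer, so the genes quoted next are mostly the highest. ZNF143, an activator of snRNA promoters, had 553 tags, and INTS9, a subunit of the Integrator that cuts snRNA ends, had 529, both in cluster II and the promoter list. HEXIM1 and HEXIM2, which act with 7SK, had 161 and 116, SNAPC3, a subunit of the complex that binds snRNA promoters, had 125, and GEMIN8 and GEMIN6 of the SMN complex had 174 and 107. LARP7, which binds 7SK, had a region in cluster I with 45 MACS tags and a tagcount of 49.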

How the data were processed

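H3R2me2a regions were taken from 5 lists deposited by the authors for 2 libraries. The submitters' processing notes name deepTools, MACS 1.4, Bowtie2 and bcl2fastq and the build hg19 (GRCh37), without saying what each did. Whole-number tag counts per region (MACS tags and tagcount), with no scaling, were deposited by the authors, per the file headers. The sources used here do not give caller settings, the control, sequencing depth, the criteria for clusters and classes or the library behind tagcount. The start window of 1250 bp and the upstream window of 5000 bp are per the file headers.

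Lists were joined on chromosome, start and stop. Members and gene lists were chosen with earlier results of these data known. Shares carry exact Clopper-Pearson 95% intervals and medians order-statistic 95% intervals, and the procedure was tested on simulated data. All regions include the members. Named genes were cluster I members, the 15 highest tagcounts, the 10 highest MACS tags, the 10 highest and 5 lowest ratios, numbered genes near starts, names with several regions and contig members; a few further regions were named after their values were seen, as were the partner genes quoted. GENCODE 44 and RefSeq supplied names, gene types and transcript sequences, never coordinates. Promoter sequences of these genes were not used here, so the planned search of promoters was not run, and the search of transcripts for the Sm-type sequence was chosen after seeing the data. The sequences of some named genes are not reported here. Python 3.11.15, pandas 2.3.3, scipy 1.17.1 and edlib 1.3.9.post1 were used. Alternatives changed the distance limit, pseudocount, fold, and the set of regions.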

Additional observations from a re-analysis of the deposited data

How the results depend on the processing

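Of 81 alternative values for the 9 quantities, 47 stayed within the counting interval (or close to the count, for the number of regions) and 34 moved. No paired analysis was possible because there was 1 library per condition, and no replicate could be left out. Dropping regions whose tagcount was below their list's median left 189 members, with 6.88% in cluster I, 37.6% in cluster II, 55.6% in cluster III, 24.3% in the promoter list, 34.9% within 1000 bp, a median tagcount of 52, a median ratio of 1.44 and 3.81% at least 4-fold. For these measures all regions had 4.35%, 44.4%, 51.2%, 48.3%, 52.8%, 50, 1.59 and 3.14%. The cluster II interval of the members, 30.6 to 44.9, includes the 44.4% of all regions. Keeping those within 5000 bp of the start left 129, with 45% in cluster II, 51.9% in cluster III, 34.1% in the promoter list, 62.0% within 1000 bp, a median tagcount of 56, a median ratio of 1.55 and 10.4% at least 4-fold. All regions there had 31.4%, 66.9%, 72.9%, 79.2%, 37, 1.82 and 6.75%, so members were above all regions in cluster II. Without names ending in P there were 175 members, with 25.1% in the promoter list and 33.7% within 1000 bp, and names counted once numbered 206. Without chromosome 1 the shares were 15.8% in cluster II, 80.3% in cluster III, 12.7% in the promoter list and 17.4% within 1000 bp, against 24.5%, 73.3%, 48.1% and 51.1% of all regions. Without U1 names, an alternative chosen after seeing the data, they were 16.4% in cluster II, 12.5% in the promoter list and 18.1% within 1000 bp. A distance limit of 250 bp gave 15.9% near a start and one of 5000 bp gave 37.3%. Without chromosome 12 the median ratio was 2.54, with a pseudocount of 5 it was 1.96 and the share at least 4-fold was 15%, and a fold of 2 gave 56.2%. Depth is unknown, and tags among near-identical copies are uncertain, which limits single counts.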
